A study of Mus musculus with 24 samples.

Results

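Brain RNA of mice fed mouse pellets was compared with that of mice fed only fast food, over 12 of the 24 brain arrays of the series. The arrays were those titled PelletDiet and FastFoodDiet, 6 of each, with 3 per diet in each of 2 labelled batches. All mice were NMR-1 females that began at 8 weeks of age and received their food for 2 weeks. Pellets were the food on which the mice had been raised, so that the pellet mice kept their food and the fast food mice changed theirs. The fast food mice ate food of a single restaurant chain and nothing else. Littermates were spread over the diets, and each array holds RNA from the right cerebral hemisphere of 1 mouse. The other arrays, 6 on a chimpanzee diet and 6 on a human cafeteria diet, entered the fit for the estimate of the spread. Where an array was left out, they also entered the difference over both batches, through the shared batch term. They are named only where a pellet or fast food result is set against them. The values are log2 expression levels, so that a difference of 1 is a doubling, and every difference is pellet minus fast food. They cover 13839 features, 11645 genes and 2194 probe sets without a gene name, with a mean level of at least 4.07.

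A cerebral hemisphere mixes neurons, glia and vessel cells of many regions. A level in such tissue cannot tell fewer cells of a type apart from less RNA per cell. Many brain genes follow the time of day through the circadian clock, in which the proteins Clock and Arntl switch on the Per and Cry genes and the Per and Cry proteins then repress their own transcription. Food intake and its timing are known to act on clock genes, on glucocorticoid-responsive genes and on genes of insulin signalling. Neuronal markers were present on all 12 arrays, with Snap25, a protein of synaptic vesicle release, between 10.41 and 12.38. Mbp, a main protein of myelin, lay between 11.01 and 12.88.

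The labelled batches of the pellet arrays stood opposite to those of the other diets. The mean of 3 probe sets for 18S ribosomal RNA was 4.96, 5.51 and 5.18 on the pellet arrays of batch 1 and 6.32, 5.92 and 6.42 on those of batch 2. On fast food it was 6.04, 5.87 and 6.58 in batch 1 and 4.88, 4.90 and 4.92 in batch 2. The chimpanzee and cafeteria arrays lay between 5.87 and 6.30 in batch 1 and between 5.04 and 5.15 in batch 2, in the order of the fast food arrays. Over the 13839 features, the difference of batch 2 minus batch 1 in pellet mice correlated at r = -0.75 with that in fast food mice, at -0.73 with that in chimpanzee diet mice and at -0.79 with that in cafeteria mice. Among the other 3 diets these correlations were 0.78, 0.82 and 0.89. They are across features of shared arrays and are given as a description. Without pellet batch 2 replicate 1 the correlation of pellets with fast food was also -0.75. Values with the 2 batch labels exchanged among the pellet arrays are therefore given beside the labelled ones. The labels themselves were kept, and whether they are in error was not tested.

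Pellet batch 2 replicate 1 stood apart from all others. Its median correlation with the other 23 arrays was 0.893, against 0.980 to 0.993 on the other 11 pellet and fast food arrays. Its values had the smallest SD, 1.58, and its median was 4.32, against 4.02 to 4.14. It held the lowest value of the 12 arrays in 63.0% of features and the highest in 19.8%. The difference of Actb between its 3′ and 5′ control probe sets, a measure of RNA degradation, was 0.417 on that array and 0.370 to 0.644 on the other pellet arrays. On fast food it was 0.421 to 0.569. The highest value, 0.644, was that of pellet batch 2 replicate 3, whose median correlation was 0.980. The same difference for Gapdh was also highest on pellet batch 2 replicate 3, at 0.133. On the other 11 pellet and fast food arrays it was -0.013 to 0.080, with 0.064 on pellet batch 2 replicate 1. Over both batches together, 9 such measures per array were compared by an exact two-sided permutation test over the 924 splits of 6 against 6, which takes no account of batch. The lowest exact p was 0.0649, for the median of the values (adjusted p = 0.584 over the 9 measures), and 18S gave an exact p of 0.628 (adjusted p = 0.628). Within batches 18S differed by -0.95 in batch 1 and by 1.32 in batch 2, with no overlap in either, so that opposite differences offset each other in that test. The SD of the values was 1.58 to 1.85 on the pellet arrays of batch 2 and 2.04 to 2.06 on the fast food arrays. The methods leave out 1 pellet brain array for RNA degradation without naming it, so that all 6 were used here, and values without pellet batch 2 replicate 1 are given beside the main ones. The diets are then unequal over the batches, so that such values over both batches depend in part on the shared batch term.

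**Figure D1:**
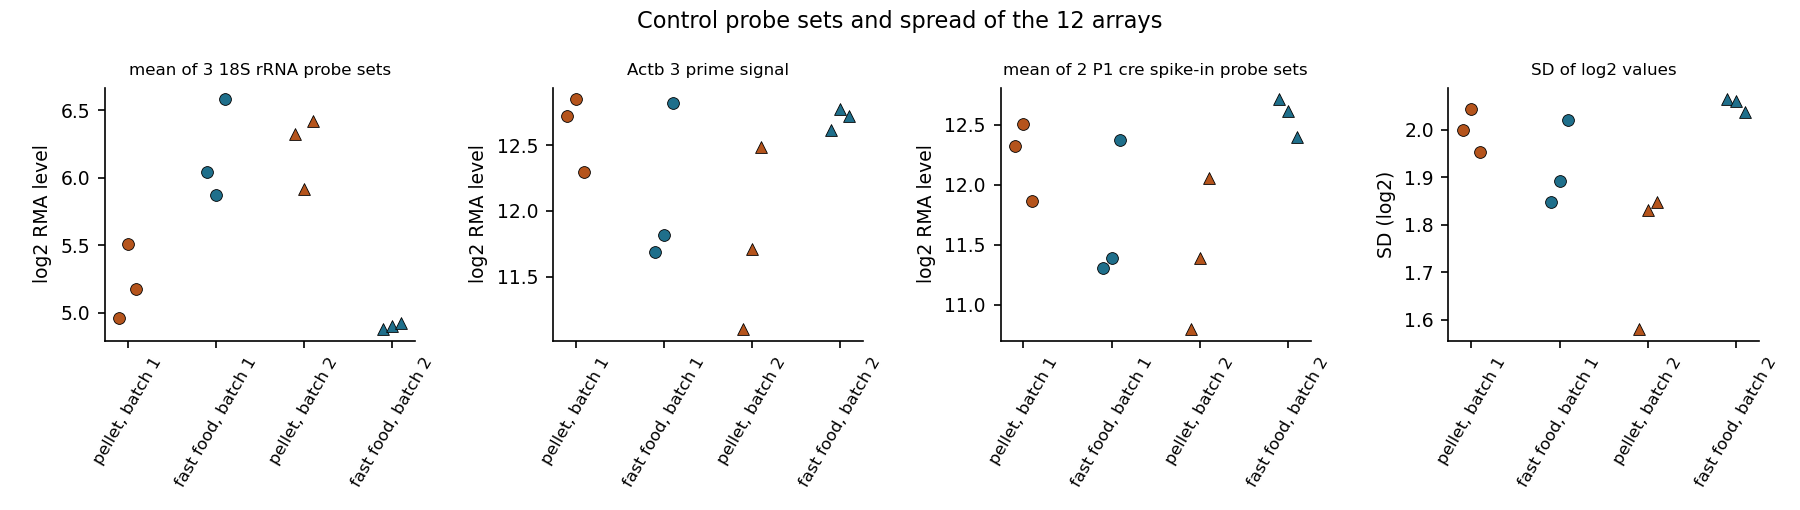
Measures of each pellet and fast food array by labelled batch, on the scales given on the axes, with 1 point per array. The 18S level is low in pellet batch 1 and fast food batch 2 and high in pellet batch 2 and fast food batch 1, and pellet batch 2 replicate 1 has the smallest SD (1.58).

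With labelled batch as a term, 5 genes were lower on pellets than on fast food and 0 were higher, at an adjusted p under 0.05 in limma. This was 0.0361% of the 13839 features, and 2981 features had an unadjusted p under 0.05. The 5 genes were Per2, Sfxn5, Tmem181a, Inpp4a and Klf13. All 5 were lower on pellets in both labelled batches, and in all 5 the highest pellet array lay below the lowest fast food array. Of all features 15.7% were lower in both batches and 0.527% were separated in this way. The genes were called from these same values, so that this describes the calls and adds no further test. Without pellet batch 2 replicate 1 these 5 genes and Lrrc8a, a subunit of volume-regulated anion channels, were called, which was 0.0434% of features.

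Per2, a repressor within the circadian clock, was 2.14-fold higher on fast food. Its levels were 5.36, 5.16 and 5.56 in pellet batch 1, 4.33, 5.31 and 4.35 in pellet batch 2, 6.13, 5.87 and 5.83 in fast food batch 1 and 6.26, 6.24 and 6.32 in fast food batch 2. Pellet batch 2 replicates 1 and 3 were the lowest, and the fast food arrays spanned 0.49. The difference was -1.10 ± 0.18 (SE, limma adjusted p = 0.0084), and -0.96 without pellet batch 2 replicate 1 (adjusted p = 0.0096). It was -0.58 in batch 1 and -1.61 in batch 2, and this diet-batch interaction was itself called (adjusted p = 0.0050). Within batch 1 the gene was not called (limma adjusted p = 0.762). Of its 3 probe sets above the level filter, the others gave -0.20 and 0.15, so that the difference was read by 1 probe set. In the other diets Per2 lay at 6.48 ± 0.15 (chimpanzee) and 5.81 ± 0.16 (cafeteria), and on pellets at 5.01 ± 0.54 (SD, n = 6). The gene lies at chr1:91415977-91459351 in GRCm38.p6.

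Sfxn5, a sideroflexin of the inner mitochondrial membrane, was 2.09-fold higher on fast food. Its pellet levels were 6.95, 6.86 and 6.76 in batch 1 and 5.96, 6.61 and 6.91 in batch 2. Its fast food levels were 7.72, 7.94 and 8.35 in batch 1 and 7.86, 7.22 and 7.31 in batch 2. The lowest fast food array was thus 0.27 above the highest pellet array, and the lowest pellet array was again pellet batch 2 replicate 1. The difference was -1.06 ± 0.16 (SE, limma adjusted p = 0.0056), -0.94 without that array (adjusted p = 0.0077), -1.15 in batch 1 and -0.97 in batch 2. Of the 5 genes it had the batch values nearest to each other, with an interaction adjusted p of 0.618. It lies at chr6:85213049-85333482.

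Tmem181a, a gene for a membrane protein, was 2.04-fold higher on fast food. Its pellet levels were 7.96, 8.05 and 7.82 in batch 1 and 7.06, 7.53 and 7.59 in batch 2, and its fast food levels were 8.63, 8.56 and 8.90 in batch 1 and 8.95, 8.73 and 8.41 in batch 2. The lowest fast food array lay 0.36 above the highest pellet array. The difference was -1.03 ± 0.15 (SE, limma adjusted p = 0.0054), -0.90 without pellet batch 2 replicate 1 (adjusted p = 0.0041), -0.75 in batch 1 and -1.30 in batch 2 (interaction adjusted p = 0.052). Pellet and fast food means were 7.67 ± 0.36 and 8.70 ± 0.21 (SD, n = 6), and those of the chimpanzee and cafeteria diets were 7.84 ± 0.21 and 8.23 ± 0.21. The gene lies at chr17:6256726-6308314.

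Inpp4a, a phosphatase that removes a phosphate from inositol lipids, was 1.82-fold higher on fast food. Pellet levels were 7.20, 7.18 and 7.24 in batch 1 and 7.05, 7.31 and 7.01 in batch 2. Fast food levels were 8.24, 8.04 and 8.50 in batch 1 and 8.12, 7.66 and 7.62 in batch 2. The pellet arrays were close together (SD 0.11) and the fast food arrays more spread (SD 0.34). The difference was -0.87 ± 0.15 (SE, limma adjusted p = 0.018), -0.87 without pellet batch 2 replicate 1 (adjusted p = 0.025) and -0.68 in batch 2. It was called within batch 1 (adjusted p = 0.0069). Leaving out pellet batch 1 replicate 2, pellet batch 2 replicate 3, fast food batch 1 replicate 3 or fast food batch 2 replicate 1 took the adjusted p to 0.053, 0.059, 0.090 and 0.087. Centring each array on its median and quantile normalization also ended the call (adjusted p = 0.157 and 0.206). Its other probe set gave -0.18, with 0.05 in batch 1, where the one used gave -1.05, and -0.40 in batch 2. The call within batch 1 was thus read by 1 probe set. Levels were 7.29 ± 0.19 on the chimpanzee diet and 7.80 ± 0.40 on the cafeteria diet. The gene lies at chr1:37299827-37410740.

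Klf13, a zinc finger transcription factor that binds GC-rich promoter DNA, was 1.61-fold higher on fast food. Pellet levels were 7.50, 7.47 and 7.34 in batch 1 and 7.43, 7.41 and 7.46 in batch 2, and fast food levels were 8.44, 8.08 and 8.26 in batch 1 and 8.09, 8.11 and 7.75 in batch 2. The 6 pellet arrays spanned 0.17, the narrowest range of the 5 genes, and pellet batch 2 replicate 1 lay within it. The difference was -0.68 ± 0.10 (SE, limma adjusted p = 0.0054), -0.70 without that array (adjusted p = 0.0041), -0.82 in batch 1 and -0.55 in batch 2. Klf13 was called within batch 1 on its own (adjusted p = 0.0083) and within batch 2 (adjusted p = 0.0010). The call was lost with each array centred on its median (adjusted p = 0.211) and with quantile normalization (adjusted p = 0.225). Its other probe set gave -0.24, with -0.06 in batch 1 and -0.42 in batch 2. Chimpanzee and cafeteria levels were 7.70 ± 0.11 and 7.85 ± 0.26. The gene lies at chr7:63886351-63938915.

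With only the 12 pellet and fast food arrays in the fit, none of the 5 genes passed (adjusted p from 0.200 to 0.432), and 1090 features had an unadjusted p under 0.05. Against the chimpanzee diet, which shares the pellet arrays, pellets differed in Per2 (-1.47, limma adjusted p = 0.0003), and the other 4 genes had differences of -0.12 to -0.26 that did not pass.

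**Figure D2:**
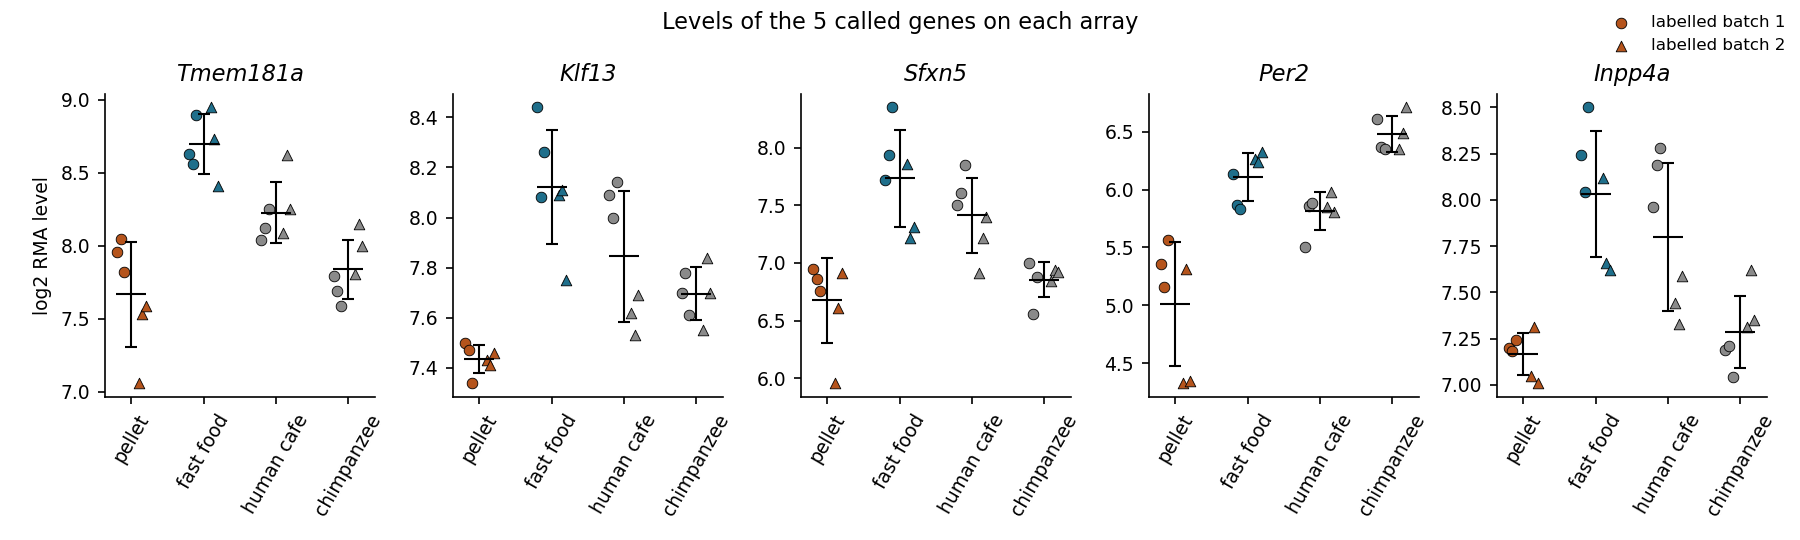
Log2 expression levels of the 5 called genes on the arrays of each diet, with 1 point per array, a symbol for each labelled batch, and the mean and SD of each diet. In each gene all 6 pellet points lie below all 6 fast food points.

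The promoters of 3 of the called genes, and of the clock gene Cry1 described below, are shown because they hold letters searched for in clock, cAMP-responsive and GC-rich promoters. They are RefSeq sequences of GRCm38.p6, the 150 bases before an annotated start, on the gene's strand, with matches in capitals. Klf13 (chr7:63938916-63939065, minus strand) has GGGCGG, the GC box, at 131, 27 and 6 bases before the start, each read on this strand as CCGCCC. Inpp4a (chr1:37299688-37299837, plus strand) has TGACGTCA, the cAMP response element, 74 bases before the start and GGGCGG 26 before it. Tmem181a (chr17:6270320-6270469, plus strand, at the downstream of its annotated starts) has the E-box CACGTG 92 and 24 bases before the start and a GC box at 51. Cry1 (chr10:85185055-85185204, minus strand) has CACGTG at 60, CACGTT at 79 and GC boxes at 45, 26 and 21, of which the nearer ones overlap.
Klf13: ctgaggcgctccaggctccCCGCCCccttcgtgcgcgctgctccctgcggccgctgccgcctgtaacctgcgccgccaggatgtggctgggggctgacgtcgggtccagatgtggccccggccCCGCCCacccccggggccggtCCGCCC
Inpp4a: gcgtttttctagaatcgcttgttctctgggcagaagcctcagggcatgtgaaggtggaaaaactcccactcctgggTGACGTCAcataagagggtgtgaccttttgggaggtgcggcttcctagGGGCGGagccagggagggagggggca
Tmem181a: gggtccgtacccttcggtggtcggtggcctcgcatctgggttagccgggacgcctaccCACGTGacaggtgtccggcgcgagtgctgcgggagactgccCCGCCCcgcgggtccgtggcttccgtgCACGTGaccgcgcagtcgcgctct
Cry1: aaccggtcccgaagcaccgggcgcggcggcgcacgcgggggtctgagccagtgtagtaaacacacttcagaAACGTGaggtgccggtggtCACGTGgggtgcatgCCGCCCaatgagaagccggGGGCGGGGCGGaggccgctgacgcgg

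Motifs were searched on both strands of windows from 250 bases before to 50 after each start. Over the 32851 windows in the table, CACGTG was in 7.15%, CACGTT in 4.68%, TGACGTCA in 1.79% and GGGCGG in 35.7%. By gene, over 27025 genes, the shares were 8.09%, 5.44%, 2.03% and 38.2%. Of the 5 called genes, 4 had a window and 3 of these held GGGCGG, while Sfxn5 held none of these letters. Per2 is not among the promoters used here. Of 16 clock genes with a window, 4 held CACGTG (Per1, Cry1, Tef and Ciart) and 4 held CACGTT (Cry1, Cry2, Nr1d1 and Rorb). Of 18 chaperone genes with a window, 8 held the heat shock letters GAANNTTC (Hspa1a, Hspa1b, Hspb1, Hspd1, Hspe1, Hsph1, Dnaja1 and Cct2), which are in 9.04% of genes. GGGCGG was in 14 of the 16 clock genes and in 17 of the 18 chaperone genes, so that a high share of it was not particular to the called genes. A match is a description of these letters only.

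Most features did not keep their sign between the labelled batches. Pellets were lower than fast food in both batches in 2175 features and higher in both in 1340, which together made 25.4%. The sign flipped in 10324 features, or 74.6%, of which 7886 were higher on pellets in batch 1 and lower in batch 2 and 2438 the reverse. Without pellet batch 2 replicate 1 the share of the same sign was also 25.4% (3519 features). Across features the differences of the 2 batches correlated at r = -0.56, and at -0.57 without that array. These are a description, over arrays normalized together.

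The batches also differed in how many features passed. Within batch 1, 5 features were called (0.0361%, with 839 at an unadjusted p under 0.05), namely Klf13, Inpp4a, Tmem250-ps and Ankhd1, which were lower on pellets, and Grik2, which was higher. Ankhd1 was at -1.05 in batch 1 and at 0.74 in batch 2, and Grik2, a kainate receptor subunit, at 0.80 and -1.22. Within batch 2, 9398 features were called (67.9%), 7358 lower and 2040 higher. Without pellet batch 2 replicate 1, 6630 were called in batch 2 (47.9%) and 39 in batch 1. The median difference of all features was 0.08 in batch 1 and -0.44 in batch 2, or -0.27 without that array. The diet-batch interaction was called in 7983 features (57.7%), 6467 of them with a lower value in batch 2. It was called in 21.1% of the features that kept their sign and in 70.1% of those that flipped.

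**Figure D3:**
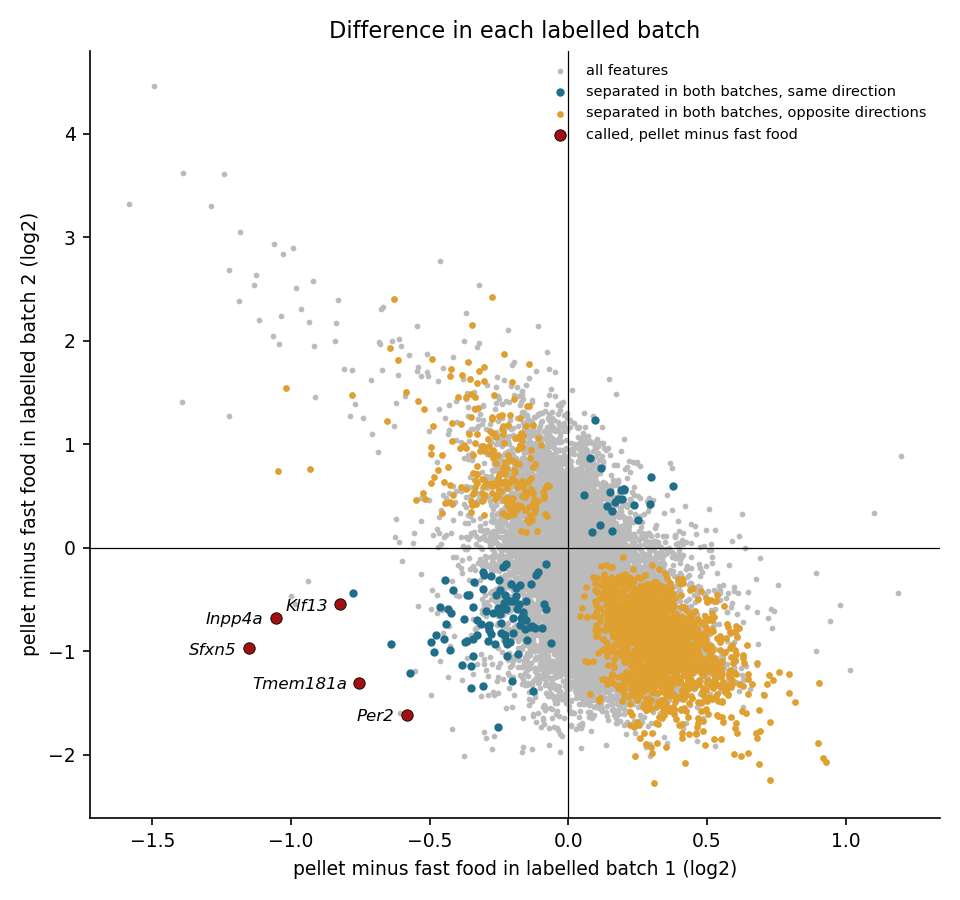
Pellet minus fast food in labelled batch 1 (x axis, log2) against that in labelled batch 2 (y axis, log2), with 1 point per feature and the called genes named. Most points lie at a positive x and a negative y (7886 of 13839), and the called genes lie at negative values on both axes.

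The flip followed the level of expression. Features were divided into 4 groups of nearly equal size by their mean level. In the lowest group, with levels of 4.07 to 5.01, the medians of batch 1 and batch 2 were -0.01 and 0.15, and 35.0% of features kept their sign. In the highest, with levels of 7.53 to 12.7, it was 0.22 in batch 1 and -0.81 in batch 2, or -0.54 without pellet batch 2 replicate 1, and 9.88% kept their sign. In this group 88.6% of features were higher on pellets in batch 1 and 3.99% in batch 2. The interaction was called in 41.2% of the lowest and 78.4% of the highest group. A list of abundant genes is therefore read below against these values as well as against all features.

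The largest flips of each kind differed in how well probe sets of a gene agreed. Lin7c, a scaffold protein of synapses and cell junctions, was at 7.38, 7.33 and 7.17 in pellet batch 1 and 4.74, 6.55 and 6.35 in pellet batch 2. On fast food it was at 6.37, 6.37 and 6.36 in batch 1 and 8.00, 7.97 and 7.89 in batch 2. Pellets were thus 0.93 higher in batch 1 and 2.07 lower in batch 2, with no overlap in either batch. Its 3 other probe sets gave 0.37 to 0.76 in batch 1 and -1.92 to -1.18 in batch 2. Dcun1d1, a factor of cullin neddylation (0.73 and -2.24), Usp15, a deubiquitinase (0.90 and -1.89), Ptbp2, a neuronal splicing regulator (0.60 and -1.99), and Lnpk, a protein of endoplasmic reticulum junctions (0.31 and -2.27), went the same way. In the reverse direction Cryl1, a crystallin-like dehydrogenase, was at 8.15, 5.69 and 9.80 in pellet batch 1 and 10.72, 10.94 and 9.60 in pellet batch 2. On fast food it was at 10.90, 10.60 and 6.62 in batch 1 and 5.15, 5.46 and 7.26 in batch 2. Fast food batch 1 replicate 3 lay with the batch 2 arrays of its diet in this gene. The difference of Cryl1 was 4.46 in batch 2, whereas its 3 other probe sets gave 0.05 to 0.21 there. Laptm5, a lysosomal protein of microglia, Vat1, Pik3cd, a catalytic subunit of phosphoinositide 3-kinase, and Ptprk, a receptor phosphatase, had batch 2 differences of 3.32, 3.62, 3.61 and 3.30. Other probe sets of these genes gave -1.16 to 0.51 in batch 2.

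At an unadjusted p under 0.01 with the same sign in both batches, 403 features were lower on pellets (2.91%) and 70 were higher (0.506%). Of the 353 genes among those lower, pellet batch 2 replicate 1 held the lowest of the 12 values in 327. Of the 47 genes among those higher it held the highest value in 41. Without that array 260 features met the same conditions, 226 lower and 34 higher. The interaction was called in 252 of the 400 genes, so that the same sign often went with unequal sizes.

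Apart from Per2 and Sfxn5, the largest lower differences of this kind were those of Htr1b, Klhl4, Tshz1, Strip2, Pbx3, Shisa9, Zscan26 and Gabrg1, none of which passed after adjustment. Htr1b, a serotonin receptor that restrains transmitter release, had a difference of -1.19, made of -0.38 in batch 1 and -2.01 in batch 2. Its value on pellet batch 2 replicate 1 was 3.21, and without it the batch 2 difference was -1.37. Its other probe set went the other way, with 0.20 over both batches and 0.42 in batch 2. Gabrg1, a subunit of the GABA-A receptor, had -0.13 in batch 1 and -1.95 in batch 2. Pbx3 and Tshz1, transcription factors of forebrain neurons, had -0.30 and -0.42 in batch 1 and -1.84 and -1.75 in batch 2. The other probe set of Pbx3 changed sign, with 0.15 in batch 1 and -1.03 in batch 2. That of Tshz1 gave -0.02 and -0.47. Shisa9, an auxiliary protein of AMPA receptors, had -0.30 and -1.78, whereas its other probe sets gave 0.02 and -0.02 over both batches. In all 10 of the largest lower differences, the lowest of the 12 values was that of pellet batch 2 replicate 1.

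The largest higher differences were smaller, from 0.51 to 0.67, and lay in batch 2. Gpx2, a glutathione peroxidase, had 0.20 in batch 1 and 1.05 in batch 2. Slc6a2, the noradrenaline transporter, had 0.23 and 0.82, and Klf1, a transcription factor of red cell precursors, had 0.11 and 1.05. Acsf3, a mitochondrial acyl-CoA synthetase, had 0.13 and 1.01, and Cxcl17, a chemokine, had 0.06 and 0.96. The others were 9930021J03Rik, Smim27, Gtsf1l, Fam71e1 and Gprc5c. In all 10, pellet batch 2 replicate 1 held the highest value, and none passed after adjustment.

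Some genes were separated in both batches, meaning that all 3 pellet arrays lay on 1 side of all 3 fast food arrays in batch 1 and again, on the same side, in batch 2. This held for 103 features lower on pellets (0.744%) and 21 higher (0.152%). Separation in opposite directions was more frequent, with 1518 features higher in batch 1 and lower in batch 2 (11.0%) and 236 the reverse (1.71%). Over all 12 arrays, the 6 pellet values lay below the 6 fast food values in 73 features (0.527%) and above them in 11 (0.0795%). Without pellet batch 2 replicate 1 the separated features were 113 lower and 30 higher, with 1557 and 255 in opposite directions.

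Genes separated lower in both batches, named here after their values were seen, were 83 and included the 5 called genes. In 73 of the 83 the difference was larger in batch 2. Lyrm4, a factor of iron-sulphur cluster assembly, had -0.64 in batch 1 and -0.93 in batch 2 (limma adjusted p = 0.057). Lrrc8a had -0.57 and -1.21 (adjusted p = 0.057), and 0.029 without pellet batch 2 replicate 1. Gm2a, an activator of ganglioside breakdown, was among the 10 with the larger difference in batch 1 (-0.78 and -0.44, adjusted p = 0.057). Ddhd2, a brain lipase, had -0.49 and -0.91, Ccdc6 had -0.48 and -1.01, and Tnfaip6, a hyaluronan-binding protein, had -0.45 and -0.88. Cux2, a transcription factor of upper cortical layers, had -0.48 and -0.85, but its other probe sets gave -0.06 and 0.02 over both batches. Rap2b, a small GTPase, had -0.46 and -0.57, and other probe sets gave -0.14 and 0.20. Of the 13 genes separated higher, C530005A16Rik had 0.38 and 0.60 and Snrpn, an imprinted gene for a splicing protein, had 0.19 and 0.47. In all 13, pellet batch 2 replicate 1 was the highest array.

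**Figure D4:**
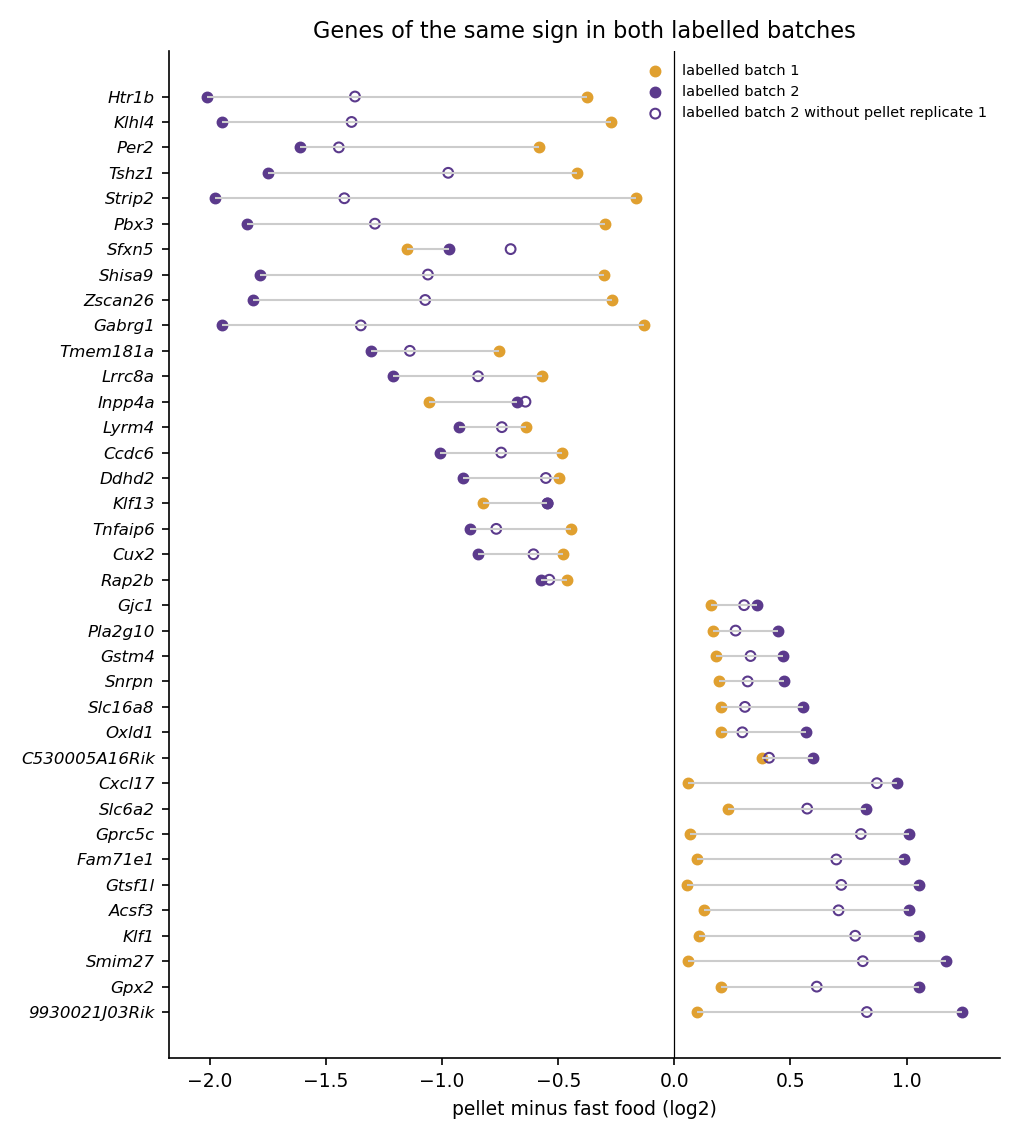
Pellet minus fast food (log2) in labelled batch 1 and in labelled batch 2 for genes of the same sign in both batches, with 1 row per gene and open circles for batch 2 without pellet replicate 1. Batch 2 differences are the larger in most rows, as in Htr1b (-0.38 and -2.01).

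Of 22 circadian clock genes, 19 were measured, and 1 of them, Per2, was called, as were 0.0361% of all features. An unadjusted p under 0.01 with the same sign in both batches was met by 3 clock genes, all lower on pellets (Per2, Cry1 and Dbp), against 2.91% of all features in that direction. Cry1, the partner of Per2 in repression, was at 4.65, 4.80 and 4.57 in pellet batch 1, 3.95, 4.52 and 4.51 in pellet batch 2, 4.91, 5.12 and 5.10 in fast food batch 1 and 5.21, 5.35 and 5.15 in fast food batch 2. All 6 pellet arrays lay below all 6 fast food arrays, with a gap of 0.11. Its difference of -0.64 was made of -0.37 in batch 1 and -0.91 in batch 2 (limma adjusted p = 0.064). Dbp, a transcription factor driven by the clock, had -0.47, with -0.30 and -0.64. Npas2, a relative of Clock, and Ciart, a repressor of the clock, were below 0 in both batches (-0.23 and -0.45, -0.16 and -0.51) without meeting that threshold. Other clock genes had batch values of opposite sign. Per3 had 0.09 in batch 1 and -1.22 in batch 2, Nr1d2 0.22 and -1.47, Bhlhe40 0.07 and -1.25, and Clock 0.14 and -0.75. Arntl, the partner of Clock, had 0.34 and -0.06, and Nr1d1, a repressor of Arntl, had -0.01 and 0.59. Over the list the median difference was -0.31, with 0.06 in batch 1 and -0.71 in batch 2, and 5 of 19 kept their sign. It was -0.14 over both batches without pellet batch 2 replicate 1. The median over all features was -0.16, with 0.08 and -0.44 in the batches and -0.05 over both without that array. The time of day at which the mice were killed is not given in the sources used here.

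In other regulatory lists too, counts stand beside the 2.91% of all features that were lower under these conditions. Of 22 immediate early genes, which neurons switch on with activity, 2 met the unadjusted threshold with the same sign. They were Fosl2 (-0.04 in batch 1 and -1.61 in batch 2) and Bdnf, a growth factor of neurons (-0.19 and -0.51). Of 16 glucocorticoid-responsive genes 1, Tsc22d3, met the conditions. In this list 1 gene was higher on pellets, against 28.9% of all features. The list median was -0.38, with -0.12 in batch 1 and -0.70 in batch 2. In it Tsc22d3, a classic target of the receptor, had a difference of -0.99, with -0.07 in batch 1 and -1.91 in batch 2. Of 23 genes of insulin and IGF1 signalling, Igf1 (-0.20 and -0.59) and Foxo3 (-0.16 and -0.83) met the conditions. Of 14 measured feeding neuropeptides and receptors, Npy5r, a receptor of neuropeptide Y, had -0.62, with -0.04 in batch 1 and -1.20 in batch 2. Its interaction was called (limma adjusted p = 0.0029). Crh, the stress-hormone releaser, had -0.70, with -0.25 and -1.16. Klf13 was the called member of 15 Klf and Sp factors, Inpp4a of 19 inositol phosphatases and kinases, and Sfxn5 of 15 sideroflexins and mitochondrial carriers. The medians of these 3 lists were -0.17, -0.26 and -0.26, or -0.10, -0.12 and -0.10 without pellet batch 2 replicate 1. Those of the immediate early and glucocorticoid-responsive lists were then -0.07 and -0.26.

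Lists of metabolism and of abundant proteins had batch values of opposite sign. Of 31 genes of oxidative phosphorylation, 0 kept their sign. Over both batches 0 were higher on pellets with all arrays and 18 without pellet batch 2 replicate 1, with medians of -0.22 and 0.01. The values over both batches without that array also depend on the batch term shared with the other diets. Of all features 28.9% were higher on pellets, and 36.5% without that array. The median of the 31 genes was 0.34 in batch 1 and -0.76 in batch 2, or -0.48 in batch 2 without pellet batch 2 replicate 1. The interaction was called in 26 of the 31. Glycolysis (20 genes) had medians of 0.39 and -0.90, with the interaction called in 18, and Slc2a1, the glucose transporter of vessel cells, had -0.06 and -1.27. Cytosolic ribosomal proteins (19 genes) had 0.35 and -0.69, with 2 higher over both batches and 14 without that array. Fatty acid synthesis and desaturation (21 genes) had 0.24 and -0.79, and cholesterol synthesis (19 genes) 0.18 and -0.70. Fatty acid oxidation and ketone use (18 genes) had 0.17 and -0.67. Without that array the medians of glycolysis and of these last 3 lists lay between -0.07 and -0.02 over both batches. Of 22 heat shock proteins and chaperones, 7 kept their sign, with medians of 0.28 and -0.93, and Hspa1b, an inducible chaperone, had -0.20 and -1.05. Antioxidant enzymes (22 genes) had 0.18 and -0.63, amino acid response genes and tRNA synthetases (24 genes) 0.06 and -0.35, and interferon and antigen presentation genes (12 genes) 0.01 and -0.29. No member of these lists was called. Beside them stand the medians of the highest group of features by level, 0.22 and -0.81.

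Receptor lists of neurons showed the same order of values. The 10 measured GABA-A receptor subunits had medians of 0.01 in batch 1 and -1.01 in batch 2, and 3 kept their sign. Among them Gabra5, a subunit of receptors outside synapses, had -0.19 and -0.86. Glutamate receptors and plasticity genes (19 genes) had 0.22 and -0.72. Of 8 serotonin and dopamine receptors, Htr1b and Htr5a met the unadjusted conditions, against 2.91% of all features. Htr5a had -0.08 in batch 1 and -0.83 in batch 2 (interaction adjusted p = 0.024). The medians of these 3 lists over both batches were -0.29, -0.04 and -0.07 without pellet batch 2 replicate 1.

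Markers of brain cell types also moved in opposite ways in the labelled batches. Over both batches 9844 of the 13839 features had differences below 0, as had all 16 pan-neuronal markers. Of these markers 0 kept their sign, with medians of 0.35 in batch 1 and -0.95 in batch 2. Their median over both batches was -0.33, and -0.11 without pellet batch 2 replicate 1. Oligodendrocyte and myelin markers (15 genes) had 0.20 and -1.02, and astrocyte markers (17 genes) had 0.25 and -0.69. Of 9 markers of oligodendrocyte precursors, 5 kept their sign and the interaction was called in 8. Olig2, a transcription factor of that lineage, had -0.18 in batch 1 and -1.08 in batch 2, Vcan, a matrix proteoglycan, -0.15 and -0.93, and Lhfpl3 -0.23 and -1.27. Olfactory bulb markers (12 genes) had nearly equal medians in both batches, -0.27 and -0.23. Their members were less even, as 6 kept their sign and the interaction was called in 4. Pbx3 (-0.30 and -1.84) and Dlx5 (-0.42 and -0.32, or -0.37 over both batches) met the unadjusted conditions. Inhibitory neuron markers (14 genes) had medians of 0.07 and -0.65, microglia markers (14 genes) -0.01 and -0.31, and endothelial and mural markers (15 genes) 0.19 and -0.30. Among region markers, cortex (18 genes) had 0.01 and -0.87, striatum (18 genes) 0.15 and -0.65, thalamus (15 genes) 0.15 and -0.99 and hippocampus (12 genes) 0.09 and -0.24. Hypothalamus (8 genes) had 0.01 and -0.21, choroid plexus and ependyma (12 genes) 0.09 and -0.12, and meninges (12 genes) 0.09 and -0.25. Of 9 red blood cell markers only Alas2, an enzyme of haem synthesis, was measured (1.10 and 0.33). None of the marker genes was called.

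**Figure D5:**
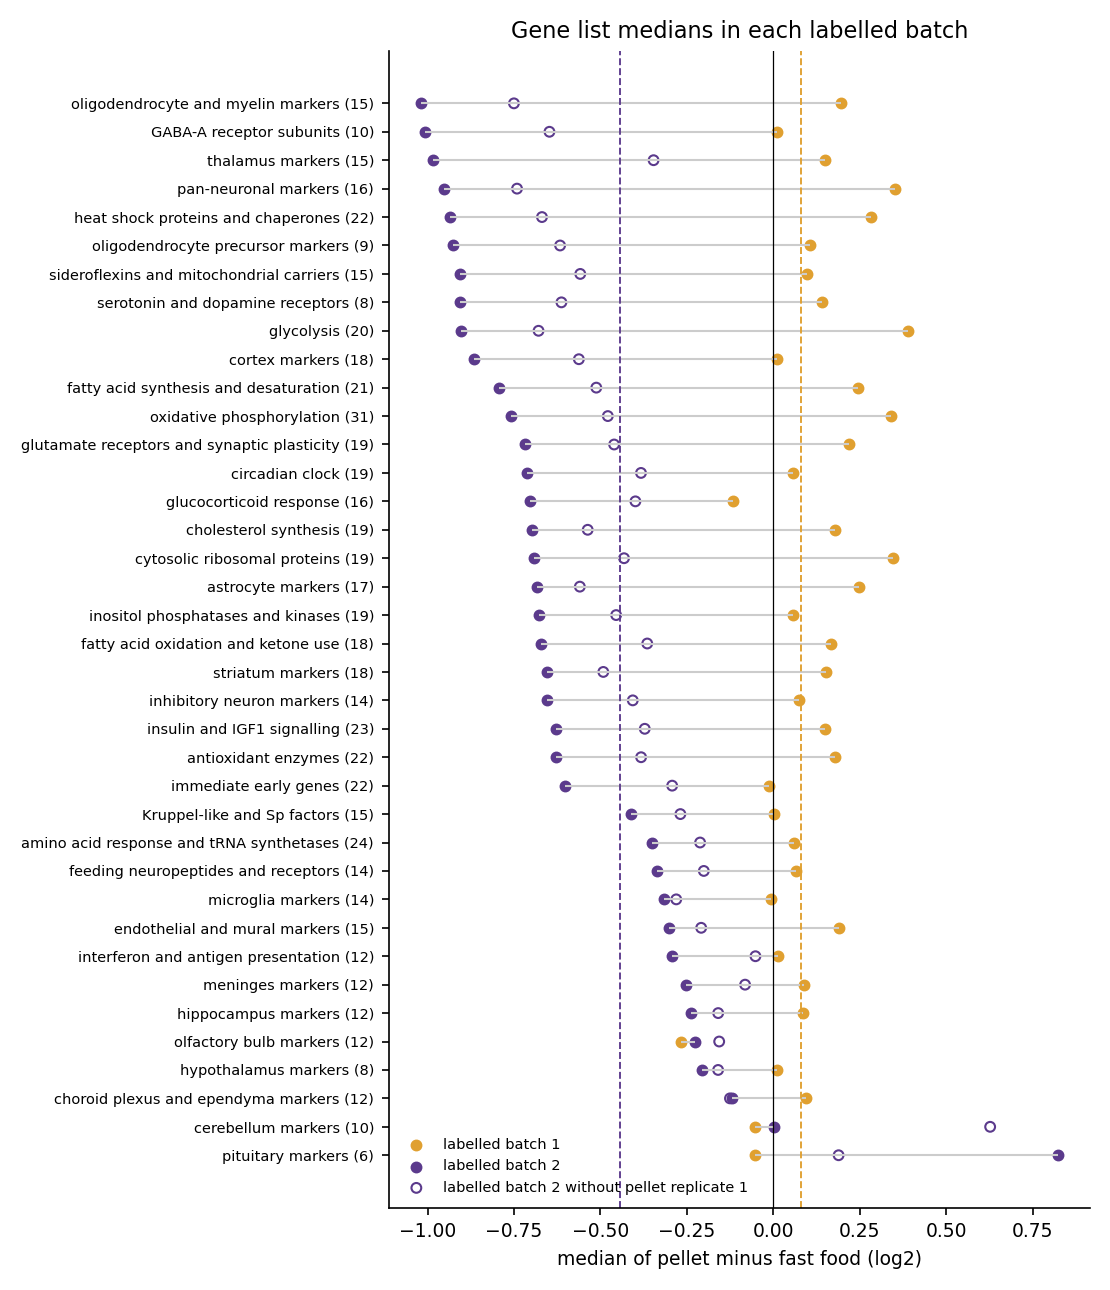
Median pellet minus fast food difference (log2) of each gene list in labelled batch 1 and in labelled batch 2, with 1 row per list, its number of measured genes in brackets, open circles for batch 2 without pellet replicate 1 and dashed lines at the medians of all features. Most lists lie at or above 0 in batch 1 and below 0 in batch 2, as all features do (0.08 and -0.44).

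Single arrays carried markers of tissue next to the hemisphere. On pellet batch 2 replicate 3, Pcp2, a marker of Purkinje cells of the cerebellum, was at 9.06, against 4.20 to 6.45 on the other 11 arrays. Gabra6, a receptor subunit of cerebellar granule cells, was at 8.88 there, against 2.78 to 5.95. Of 17 cerebellum markers 10 were measured, of which 5 were higher on pellets, and 9 without pellet batch 2 replicate 1. The pituitary hormones Prl and Gh were at 7.57 and 7.69 on pellet batch 2 replicate 1 and at 7.98 and 8.26 on fast food batch 1 replicate 1. On the other 10 arrays they lay at 3.39 to 4.23 and 3.78 to 5.00. Of 6 pituitary markers measured, 5 were higher on pellets, and 3 without pellet batch 2 replicate 1. Of all features 28.9% were higher on pellets, and 36.5% without that array. The 5 called genes were called without pellet batch 2 replicate 1, and all but Inpp4a were called without pellet batch 2 replicate 3. The part of these tissues in other differences was not tested.

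When the 2 batch labels were exchanged among the pellet arrays, 1706 features were called (12.3%), 228 of them higher on pellets. The interaction was then called in 0 features in limma, with 1675 at an unadjusted p under 0.05, and 9652 features (69.7%) kept their sign. When pellet batch 2 replicate 1 was left out as well, 712 were called (5.14%), 56 of them higher, and 9489 (68.6%) kept their sign. With all arrays in the fit, the exchange leaves every difference over both batches unchanged and alters only its spread. Calls of genes already called or separated are therefore no separate test. The same 5 genes were among those called in both cases. Their adjusted p with the array left out was 0.0001 for Tmem181a, 0.0004 for Per2, 0.0021 for Klf13, 0.0051 for Sfxn5 and 0.0088 for Inpp4a. Of the 83 genes separated lower in both labelled batches, 66 were called with exchanged labels and 50 when that array was also left out. Cry1 (adjusted p = 0.0088) and Lyrm4 (adjusted p = 0.011) were among the 50. With exchanged labels and that array left out, list counts stand beside the 5.14% of all features. Called were 3 of 19 clock genes, 4 of 9 oligodendrocyte precursor markers and 2 of 10 GABA-A subunits. So were 1 of 22 immediate early and 1 of 16 glucocorticoid-responsive genes. The lists of insulin and IGF1 signalling (23 genes), inositol phosphatases and kinases (19 genes), Klf and Sp factors (15 genes) and fatty acid synthesis (21 genes) had 2 each. Every other list had 1 or 0.

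Differences were also taken across the labels. Pellet batch 1 minus fast food batch 2 had a median of -0.03 over all features, and pellet batch 2 minus fast food batch 1 one of -0.31, or -0.13 without pellet batch 2 replicate 1. These 2 differences correlated at r = 0.55 across features, and at 0.48 without that array, which is given as a description. Which pairing of the arrays matches the laboratory batches cannot be told apart from the labels alone.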

How the data were processed

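RNA of 24 right cerebral hemispheres was processed in 2 batches, with 1 Affymetrix mouse array per animal. The authors deposited log2 expression levels, made by rma (affy package) with quantile normalization. The labels gave diet, batch and replicate number. Of 45101 probe sets, 64 controls were set aside, 34945 had 1 gene, 9160 had none listed, and 932 with several genes were left out. Of the 34945, 34741 matched the gene table of GRCm38.p6. Probe sets with a mean level of at least the median (4.07) were kept, and for each gene the one with the highest mean.

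Pellet minus fast food was tested in limma 3.58.1 (R 4.3.3) with diet and batch over all 24 arrays, and with means of diet by batch for values within batches and the interaction. Adjusted p-values are Benjamini-Hochberg over all 13839 features. The p-values within batches and of the interaction measure the spread between animals. In the fit with diet and batch, the spread also holds the diet-batch interaction. The detection calls of the methods were not used here. The fit was tested on simulated data. Array measures were compared with scipy 1.17.1.

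Named genes were all called genes, the 10 largest lower and 10 largest higher differences of the same sign in both batches (unadjusted p under 0.01), the 5 largest interactions of each sign, and such members of 39 lists (21 of pathways, 18 of markers), of whose 721 genes 579 (80.3%) were measured. The arrays compared and the lists were chosen with earlier results of these data known. Tables and figures were made with pandas 2.3.3 and matplotlib 3.10.9 in Python 3.11.15. Alternatives covered the filter, the probe set, normalization, arrays and batch terms, array weights and each array left out. Values across the labels, and lists without pellet batch 2 replicate 1, were added after seeing the data. The number of arrays limits the precision.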

Additional observations from a re-analysis of the deposited data

Results flagged for a closer look

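Pellet batch 2 replicate 1 lay far from the other 5 pellet arrays in 6 of the 32 groups of pellet values checked (23 of genes and 9 of array measures), where its gap to the nearest array, as a share of the range of the 6, passed Dixon's critical value for 6 values. The same groups on fast food had 0 such values. Chance gives about 1 such group in 20 where groups are taken without regard to their values, and these groups share an array. The genes were chosen by their calls or large differences, so that this rate is no reference for them. In all 10 of the largest lower and all 10 of the largest higher differences, this array already held the extreme value of the 12. The share was 0.865 for the median correlation with the other 23 arrays and 0.656 for the median of the log2 values. It was 0.658 for Sfxn5, whose call remained without that array. It was 0.746 for Htr1b, 0.720 for Klhl4 and 0.716 for Zscan26, which were not called in either case.

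The difference between diets was unequal in the labelled batches in 7983 features by the interaction test in limma. Among the 5 called genes this held for Per2, with a batch 2 difference 1.03 further below 0 than that in batch 1 (-1.03, adjusted p = 0.0050).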

How the results depend on the processing

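Main calls (5 features) were 6 with no level filter, 4 at a mean level of at least 6, 9 with every probe set on its own, 10 with arrays centred, 17 with quantile normalization, 351 with array weights (262 higher on pellets) and 0 with only the 12 arrays. Exchanged pellet labels gave 1706, or 712 without pellet batch 2 replicate 1. The methods' two-way test gave 0 after adjustment (2837 at an unadjusted p under 0.05), and 109 features at its own threshold after removal of interactions. Leaving out 1 array gave 4 to 8. Centring and quantile normalization kept 3 of the 5 genes, losing Klf13 and Inpp4a. The replicate numbers did not pair the arrays (correlations of deviations from -0.51 to 0.10), and the replicate block gave 4 calls, without Inpp4a. Interaction calls (7983) were 5263 at a mean level of at least 6, 12811 with every probe set, 5030 with quantile normalization, 0 with exchanged labels and 6233 to 9416 with 1 array left out. Features of the same sign (3515) were 8738 with no filter, 1405 at a level of at least 6, 5621 with every probe set, 9652 with exchanged labels and 2882 to 4809 with 1 array left out. Calls within batch 1 (5) were 28 with every probe set, 10 centred, 11 with quantile normalization, 0 with the 12 arrays (478 at an unadjusted p under 0.05), 6311 with array weights (4907 higher) and 0 to 39 with 1 array left out, 39 being without pellet batch 2 replicate 1. Calls within batch 2 (9398) were 14944 with no filter, 5868 at a level of at least 6, 14956 with every probe set and 6630 to 10181 with 1 array left out. Of them 4126 of 8315 were higher on pellets when centred and 3474 of 7380 with quantile normalization, against 2040 of 9398. Non-overlapping features (84) were 149 with no filter, 45 at a level of at least 6, 155 with every probe set, 131 with quantile normalization and 89 to 316 with 1 array left out, 316 being without fast food batch 1 replicate 1. The settings held unequal numbers of features, with 27354 for no filter, 7610 for a level of at least 6 and 21996 for every probe set. The main setting held 13839, so that counts in these settings follow the number of features in part. Leaving out an array can only raise the count of non-overlapping features. The cause of the other changes was not tested. None of the 23 genes tracked changed sign in the 24 alternatives run for single genes, of which the level of at least 6 kept 7 of them. These genes were chosen for their calls or large differences, and several alternatives leave the difference itself unchanged.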
